A study of Homo sapiens with 12 samples.

Results

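The genes described here are 32 transcriptional targets of p53, chosen by name, of which 30 had a probe set of their own among the 18417 genes measured. BTG2 and FDXR were not analysed here, because the probe annotation used listed neither, alone or among several gene symbols. Transcripts were measured in A172, an adherent cell line from a human glioblastoma, on Human Gene 1.0 ST arrays, which read a gene with probes spread along its transcript. The 12 arrays fell into 4 groups of 3 cultures, each harvested at day 4 of growth. The groups were wild-type cells, which carried no vector, mock cells with a stable integration of the empty pcDNA3.1 plasmid, and the stable hHSS1 clones 7 and 8, which received pcDNA3.1 encoding hHSS1 with a histidine tag. hHSS1 is the former name of EMC10, a subunit of the membrane protein insertion complex of the endoplasmic reticulum that also has a secreted form. Stable clones were kept in the selection drug G-418 by the study's methods. The mock line and each clone are 1 line each, so the P-values measure the spread between cultures, not between independently made lines. The series addressed which genes and pathways hHSS1 overexpression modulates in glioma cells.

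p53 is a transcription factor that is held low in resting cells by MDM2, a ubiquitin ligase that is itself a p53 target. DNA damage, nucleolar stress and other insults release p53, which then binds response elements near its target genes and raises their transcription. Some targets halt the cell cycle, some promote apoptosis, some repair DNA or alter metabolism, and some feed back on p53 itself. CDKN1A (p21), an inhibitor of cyclin-dependent kinases, also causes repression of mitotic genes through the DREAM complex. The pathway is often lost in glioblastoma.

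The start sites of several of the genes carry a close match to the p53 response element, which has 2 abutting half-sites of 10 bases. The RefSeq promoter windows (GRCh38.p14, 250 bases before to 50 after each start) were searched on both strands with the C and the G of each core fixed and up to 3 mismatches elsewhere. A window was given for 27 of the 32 genes, and 7 of these (25.9%) held a match, FDXR among them, against 1.37% of all 27305 genes with a window. The genes are textbook targets, so the share is a description of how they are known and not a finding of the arrays. The matches of the 6 measured genes are shown because the results below turn on several of them, with the core of each half-site in capitals.
MDM2, chr12:68808923-68808942, plus strand, 94 bases before a start, 2 mismatches: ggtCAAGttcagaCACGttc
FAS, chr10:88991309-88991328, plus strand, 122 bases before the start, 2 mismatches: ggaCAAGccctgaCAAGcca
DDB2, chr11:47214969-47214988, plus strand, 5 bases before the start, 1 mismatch: aagCTGGtttgaaCAAGccc
AEN, chr15:88621306-88621325, plus strand, 34 bases before the start, 2 mismatches: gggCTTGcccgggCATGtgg
GDF15, chr19:18386186-18386205, plus strand, 28 bases after the start, 3 mismatches: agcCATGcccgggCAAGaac
SESN1, chr6:109009018-109009037, minus strand, 49 bases before the start, 3 mismatches: ggaCAAGtctccaCAAGtca

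A match is no proof of binding, and a window without one says only that these letters are not in it. CDKN1A had no match in its window. The distances count from the start to the first base of each match on the strand of the gene.

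Before any comparison, 2 arrays went against their labels. Across the 1000 most variable genes, of which 9 are among the p53 targets, the array labelled clone 7 replicate 3 correlated with both clone 8 replicates 1 and 2 (r of at least 0.90) and negatively with clone 7 replicates 1 and 2 (r of at most -0.39). The array labelled clone 8 replicate 3 correlated with clone 7 replicates 1 and 2 (r of at least 0.90) and negatively with clone 8 replicates 1 and 2 (r of at most -0.34). The wild-type and mock arrays correlated within their own groups at r of at least 0.90. The labels were kept. The counts of called genes are also given without these 2 arrays, an alternative chosen after seeing the data, as are the values of single genes that the results turn on. A mean over both clones stays the same if these arrays are exchanged, whereas each clone alone and the difference between the clones do not.

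**Figure D1:**
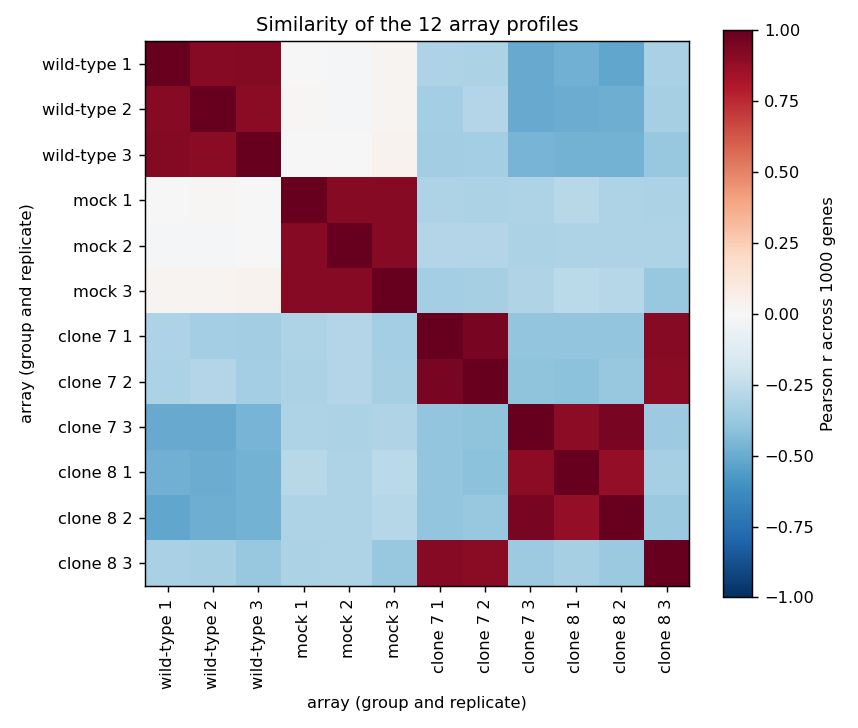
Pearson correlation between each pair of the 12 arrays across the 1000 most variable genes, each gene centred on its mean, with group and replicate on both axes and colour from -1 (blue) to 1 (red). The array labelled clone 7 replicate 3 is red with clone 8 replicates 1 and 2, and the array labelled clone 8 replicate 3 is red with clone 7 replicates 1 and 2.

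The transfected gene separated the clones from both controls. The log2 level of EMC10 was 11.13, 10.43 and 10.69 in wild-type, 9.20, 9.33 and 9.51 in mock, and from 11.57 to 12.30 in the 6 clone arrays. EMC10 was thus 6.04-fold higher in clones than in the mock line (log2 2.59 ± 0.18 SE, limma adjusted P = 7.82e-06), and it was 2.65-fold lower in mock than in wild-type (adjusted P = 0.00285). Without the 2 arrays the difference between the clones and mock was log2 2.55 ± 0.14 (adjusted P = 1.35e-06). The astroglial and mesenchymal markers VIM and CD44 were bright, with group means of log2 13.50 to 13.72 and 13.20 to 13.53, and GFAP had means of 8.65 to 8.79, while those of S100B, SLC1A3 and AQP4 did not exceed 7.01. Between the clones and mock, limma called 0 of 3 leukocyte, 0 of 4 endothelial, 0 of 3 epithelial and 0 of 4 fibroblast markers (1 epithelial marker was higher at an unadjusted P under 0.05). Of 8 astroglial markers NES was lower (log2 -0.73 ± 0.06, adjusted P = 5.89e-05), and of 4 neuronal markers STMN2 was higher (log2 0.30 ± 0.06, adjusted P = 0.0116). Both were also called without the 2 arrays (log2 -0.71 and 0.28). The summed linear level of the neuronal markers was 2158 to 2315 in mock, 2293 to 2700 in the clones and 2928 to 3094 in wild-type, and none was at 0. The summed level of the leukocyte markers was 2899 to 3170 in mock and ranged from 1982 to 5219 over the clones. The part of these markers in the results was not tested. In bulk RNA such as this, a change in the share of cells that express a gene and a change in the RNA per cell cannot be told apart.

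The first comparison asked how the p53 targets differed between hHSS1-overexpressing cells and cells with the empty vector. With both clones averaged, 13 of the 30 genes exceeded mock (limma, adjusted P under 0.05), 17 did not pass, and none of these 17 was lower even at an unadjusted P under 0.05. Across all genes tested, 2.87% were called higher and 3.51% lower. The 13 genes were CDKN1A, GADD45A, PLK3, MDM2, TP53INP1, FAS, ZMAT3, DDB2, SESN1, SESN2, TP53I3, DRAM1 and GDF15. Their differences ranged from log2 0.24 to 0.63, and TP53INP1 and FAS also passed 1.5-fold, as did 0.407% of all genes in this direction. The median difference over the 30 genes was log2 0.24, against 0.01 over all genes, and 26 of the 30 differences were above 0. Without the 2 arrays that went against their labels, 17 of the 30 were called higher and 0 lower, against 5.47% and 7.65% of all genes. The 13 genes were among these 17, with differences from log2 0.25 to 0.62 and adjusted P of at most 0.0124.

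**Figure D2:**
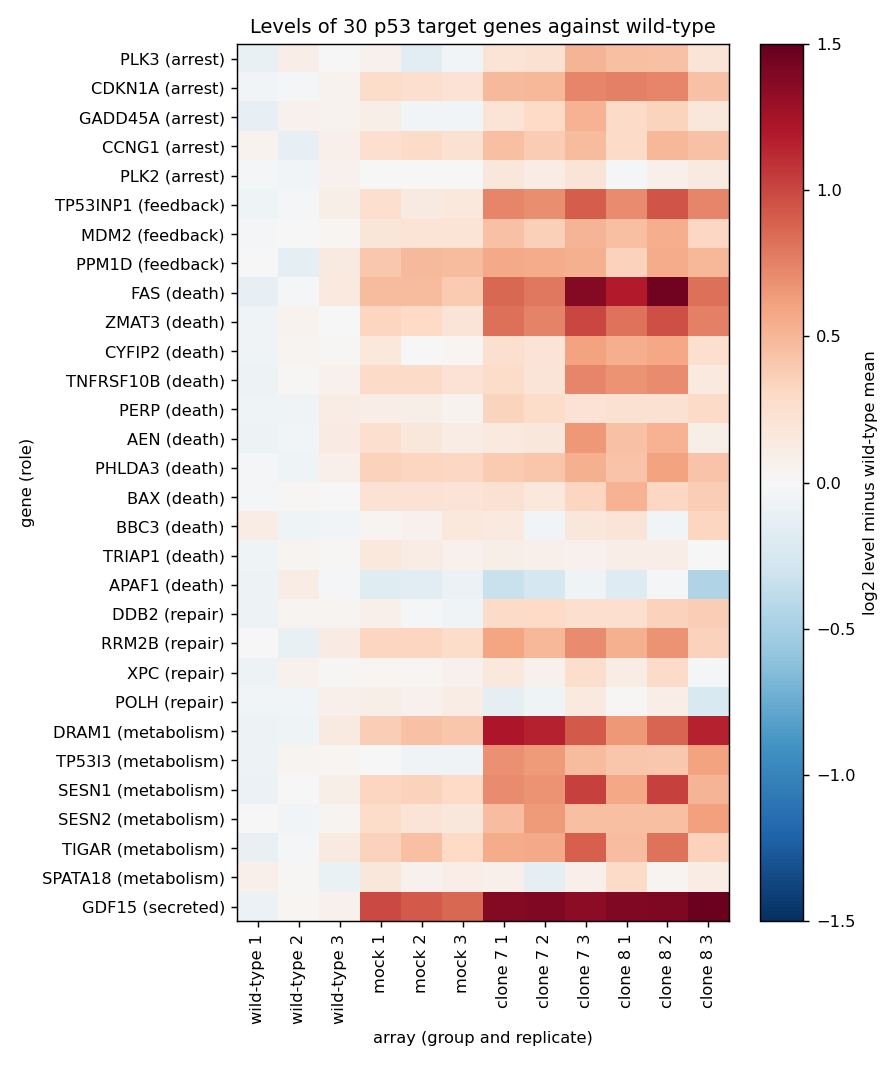
Log2 level of each of the 30 p53 target genes on each array minus the mean of the 3 wild-type arrays, with genes in rows by role and arrays in columns. Most rows turn from near white in wild-type to pale red in mock and darker red in the 6 clone arrays, while APAF1, POLH, SPATA18 and TRIAP1 stay near white or turn blue.

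The shift was seen on each clone array. Averaged over the 30 genes, the log2 level relative to the wild-type mean lay between -0.05 and 0.05 on the wild-type arrays, between 0.18 and 0.22 on the mock arrays and between 0.37 and 0.55 on the clone arrays. The same average over all genes lay between -0.0047 and 0.033 on each of the 12 arrays. In 17 of the 30 genes every clone array lay above every mock array, a pattern that 5.77% of all genes showed (18 of the 30 and 7.01% without the 2 arrays). The opposite pattern was seen in 0 of the 30 and in 8.39% of all genes.

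Of the 5 measured cell cycle arrest genes, 3 were higher in clones than in the mock line. CDKN1A had log2 levels of 11.03, 11.05 and 11.12 in wild-type, 11.34, 11.32 and 11.28 in mock, 11.55, 11.56 and 11.79 in clone 7, and 11.82, 11.80 and 11.51 in clone 8. All 6 clone arrays were above all 6 control arrays, the 3 groups of wild-type, mock and clones did not overlap, and replicate 3 of each clone stood with the other clone. CDKN1A was 1.28-fold higher in clones than in the mock line (log2 0.36 ± 0.08, adjusted P = 0.0166), and by log2 0.37 ± 0.05 without the 2 arrays (adjusted P = 0.000546). PLK3, a stress-activated polo-like kinase, was higher by log2 0.38 ± 0.09 (adjusted P = 0.0236). GADD45A, which binds PCNA and CDK1 in the damage response, was higher by log2 0.30 ± 0.08 (adjusted P = 0.0364). CCNG1, a cyclin that acts on MDM2 through a phosphatase, differed by log2 0.16 ± 0.06 (adjusted P = 0.156) and PLK2, a kinase of the same family as PLK3, by 0.11 ± 0.05 (adjusted P = 0.251), and neither passed.

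Among the 3 feedback genes, 2 were higher in clones than in the mock line. MDM2 had log2 levels of 12.10, 12.12 and 12.15 in wild-type, 12.30, 12.33 and 12.33 in mock, 12.57, 12.48 and 12.63 in clone 7, and 12.58, 12.67 and 12.43 in clone 8. The wild-type, mock and clone values formed 3 steps without overlap. MDM2 was 1.18-fold higher in clones than in the mock line (log2 0.24 ± 0.06, adjusted P = 0.0309), and by log2 0.25 ± 0.05 without the 2 arrays (adjusted P = 0.00594). TP53INP1, a nuclear stress protein that helps p53 phosphorylation, stood at 10.07, 10.11 and 10.23 in wild-type, 10.38, 10.28 and 10.29 in mock, 10.87, 10.84 and 11.04 in clone 7, and 10.84, 11.08 and 10.86 in clone 8. Its clone arrays lay clear of the mock arrays by more than the spread of either, with a 1.52-fold difference (log2 0.60 ± 0.07, adjusted P = 0.00052). PPM1D, the phosphatase that switches off the damage response, differed between the clones and mock by log2 0.05 ± 0.07 (adjusted P = 0.718), with a 95% interval of -0.09 to 0.20.

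The 11 genes of the death group gave 2 calls. FAS, a death receptor, had log2 levels of 9.37, 9.48 and 9.64 in wild-type, 9.96, 9.97 and 9.88 in mock, 10.35, 10.28 and 10.87 in clone 7, and 10.68, 10.95 and 10.31 in clone 8. The lowest clone array lay above the highest mock array, and within each clone replicate 3 was the odd value. FAS was 1.55-fold higher in clones than in the mock line (log2 0.63 ± 0.14, adjusted P = 0.0212), and by log2 0.62 ± 0.08 without the 2 arrays (adjusted P = 0.000496). ZMAT3, an RNA-binding zinc finger protein, had log2 levels of 10.96, 11.06 and 11.01 in wild-type, 11.33, 11.30 and 11.20 in mock, 11.83, 11.76 and 12.01 in clone 7, and 11.83, 11.98 and 11.76 in clone 8. It was higher in clones than in the mock line by log2 0.58 ± 0.07 (adjusted P = 0.000548), just under the 1.5-fold limit. CYFIP2, a subunit of the WAVE actin complex (log2 0.34 ± 0.10, adjusted P = 0.059) and the membrane protein PERP (0.18 ± 0.05, adjusted P = 0.0694) missed the threshold. Both were called without the 2 arrays (adjusted P = 0.00246 and 0.0457). In that setting CYFIP2 was at log2 0.16 in clone 7 (adjusted P = 0.146) and 0.49 in clone 8 (adjusted P = 0.000482). PERP was at 0.22 in clone 7 (adjusted P = 0.044) and 0.15 in clone 8 (adjusted P = 0.165).

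The other 7 genes of this group did not pass. The death receptor TNFRSF10B differed by log2 0.19 ± 0.13 (adjusted P = 0.468), with clone arrays from 11.68 to 12.27 on both sides of the mock arrays at 11.82, 11.82 and 11.75. It was called without the 2 arrays (log2 0.20 ± 0.05, adjusted P = 0.0287). This mean came from 1 clone, with clone 7 at log2 -0.03 ± 0.06 (adjusted P = 0.861) and clone 8 at 0.43 ± 0.06 (adjusted P = 0.00109) against mock. The mitochondrial effectors of apoptosis gave small values, with BAX at log2 0.11 ± 0.06 (adjusted P = 0.331), BBC3 (PUMA) at 0.03 ± 0.08 (adjusted P = 0.871) and APAF1, the apoptosome scaffold, at -0.07 ± 0.09 (adjusted P = 0.723). The 95% interval of BBC3 ran from -0.14 to 0.21, and its sign turned without the array labelled clone 8 replicate 3 (log2 -0.01). AEN, a nuclease, PHLDA3, an inhibitor of AKT, and TRIAP1, which restrains apoptosis, were at 0.16 ± 0.12, 0.14 ± 0.06 and -0.04 ± 0.05.

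Of the 4 repair genes, DDB2 was called. DDB2, which recognises ultraviolet damage in chromatin, had log2 levels of 11.86, 11.98 and 11.99 in wild-type, 12.02, 11.93 and 11.89 in mock, 12.23, 12.24 and 12.19 in clone 7, and 12.20, 12.29 and 12.31 in clone 8. The clone arrays stood above all controls while wild-type and mock overlapped. The difference between the clones and mock was 1.23-fold (log2 0.29 ± 0.05, adjusted P = 0.00685). RRM2B, the p53-inducible ribonucleotide reductase subunit, differed by log2 0.25 ± 0.08 (adjusted P = 0.0872), and by 0.27 ± 0.06 without the 2 arrays, where it was called (adjusted P = 0.0193). XPC, the damage sensor of nucleotide excision repair, was at 0.10 ± 0.07 (adjusted P = 0.49) and the translesion polymerase POLH at -0.12 ± 0.08 (adjusted P = 0.466).

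The metabolic and redox group had 4 of 6 measured genes higher in clones than in the mock line. TP53I3, a quinone oxidoreductase, had log2 levels of 9.95, 10.07 and 10.05 in wild-type, 10.03, 9.97 and 9.97 in mock, 10.71, 10.66 and 10.50 in clone 7, and 10.44, 10.42 and 10.62 in clone 8. Mock and wild-type overlapped, and the clones stood above both by 1.48-fold over mock (log2 0.57 ± 0.07, adjusted P = 0.000457). DRAM1, a lysosomal membrane protein of autophagy, stood at 11.21, 11.22 and 11.42 in wild-type, 11.65, 11.73 and 11.70 in mock, 12.50, 12.44 and 12.20 in clone 7, and 11.93, 12.16 and 12.44 in clone 8. Its 3 steps did not overlap, and the clones exceeded mock by log2 0.58 ± 0.10 (adjusted P = 0.00553), just under 1.5-fold.

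The sestrins, which restrain mTORC1 in stressed cells, were both called. SESN1 had log2 levels of 8.93, 9.02 and 9.10 in wild-type, 9.34, 9.36 and 9.32 in mock, 9.73, 9.69 and 10.05 in clone 7, and 9.60, 10.04 and 9.52 in clone 8. The clones were 1.35-fold over mock with a wide spread among themselves (log2 0.43 ± 0.11, adjusted P = 0.0362). SESN2 had log2 levels of 8.96, 8.91 and 8.99 in wild-type, 9.23, 9.15 and 9.12 in mock, 9.42, 9.60 and 9.41 in clone 7, and 9.41, 9.41 and 9.56 in clone 8, again in 3 steps. It differed between the clones and mock by log2 0.30 ± 0.06 (adjusted P = 0.0128). TIGAR, which lowers glycolytic flux, had log2 levels of 8.44, 8.53 and 8.69 in wild-type, 8.90, 9.01 and 8.85 in mock, 9.11, 9.12 and 9.45 in clone 7, and 9.02, 9.37 and 8.90 in clone 8. The clone and mock values overlapped, and the difference of log2 0.24 ± 0.11 did not pass (adjusted P = 0.231). SPATA18, a factor in mitochondrial quality control, was dim at a mean log2 level of 7.03, below the lower quartile of all genes at 7.80, and did not differ beyond its spread (log2 -0.04 ± 0.07, adjusted P = 0.837).

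GDF15, a secreted stress cytokine of the TGF-beta family, stood in 3 steps. Its log2 level was 10.90, 11.01 and 11.06 in wild-type, 11.98, 11.92 and 11.85 in mock, 12.37, 12.38 and 12.34 in clone 7, and 12.38, 12.39 and 12.46 in clone 8. The SD was 0.02 in clone 7 and 0.04 in clone 8, and replicate 3 of each lay with the rest. GDF15 was 1.39-fold higher in clones than in the mock line (log2 0.47 ± 0.05, adjusted P = 0.000411), and by log2 0.47 ± 0.06 without the 2 arrays (adjusted P = 0.000361).

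**Figure D3:**
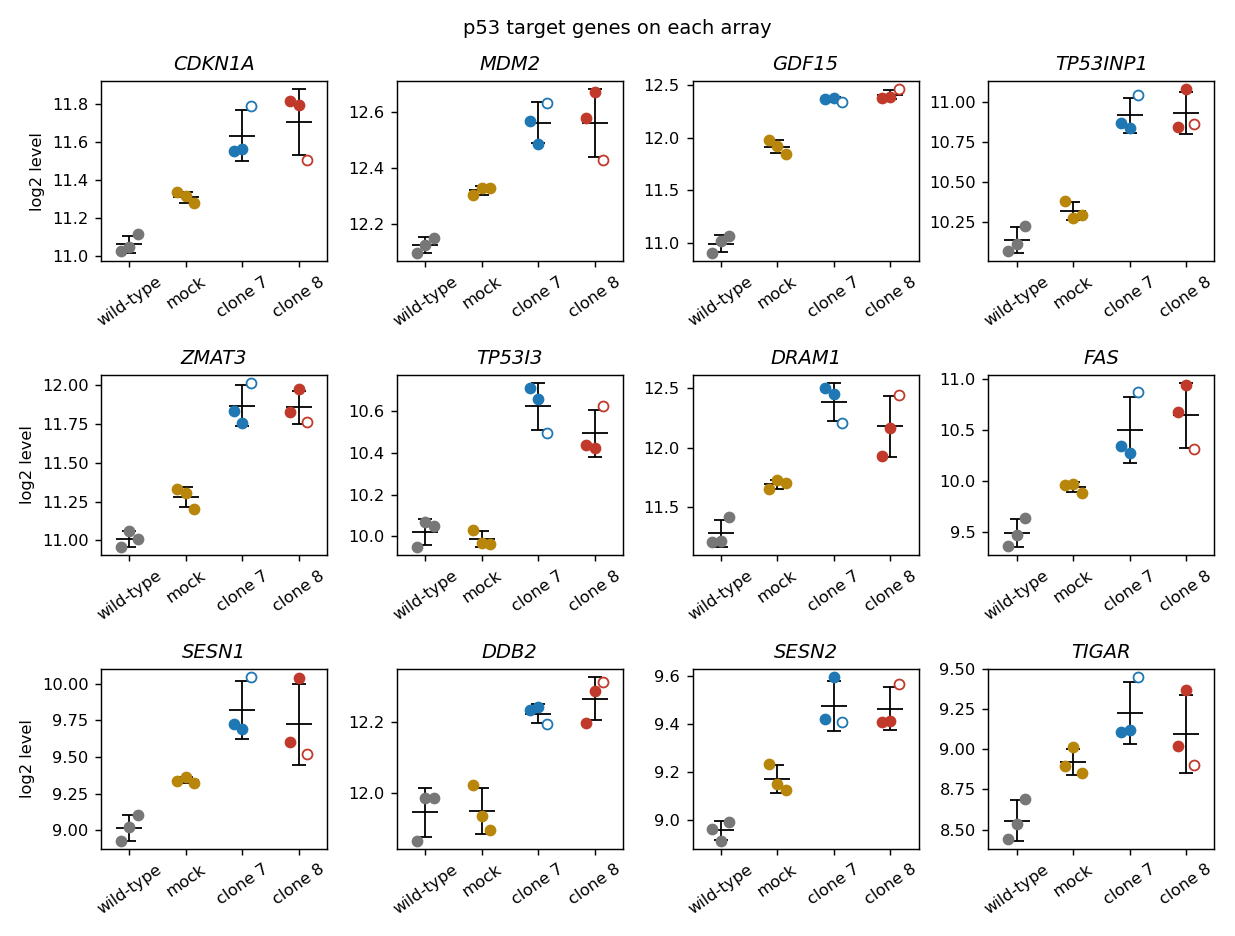
Log2 level of 12 p53 target genes on each array, with wild-type, mock, clone 7 and clone 8 along each x axis, bars for the mean ± SD of 3 arrays, and open circles for the arrays labelled clone 7 replicate 3 and clone 8 replicate 3. The y axes differ between panels and do not start at 0. GDF15 and SESN2 keep the clones together, while in CDKN1A, FAS and DRAM1 each open circle lies with the filled circles of the other clone.

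Part of the difference from wild-type was already present in the mock line, which carries the vector without hHSS1. Mock was higher than wild-type in 3 of the 30 genes and lower in 0 by limma, against 1% and 1.24% of all genes. At an unadjusted P under 0.05, 15 were higher and 0 lower, against 6.2% and 5.86% of all genes. GDF15 was 1.90-fold higher (log2 0.92 ± 0.06, adjusted P = 8.89e-06) and alone passed 1.5-fold (0.299% of all genes), PPM1D 1.37-fold higher (0.46 ± 0.08, adjusted P = 0.00767) and PHLDA3 1.26-fold higher (0.33 ± 0.07, adjusted P = 0.025). The median over the 30 genes was log2 0.19, against 0.02 over all genes, and 27 of the 30 differences were above 0. In 17 of the 30, every mock array lay above every wild-type array, as 15.6% of all genes did. The limma count of 3 genes higher in mock than in wild-type depended on the fit. It was 11 without the 2 arrays, against 3.41% of all genes called higher and 3.66% lower, and 15 when only the wild-type and mock arrays entered the fit, against 5.22% and 5.37%. The median SD of the 30 genes was 0.11 in clone 7 and 0.13 in clone 8, against 0.08 in wild-type and 0.04 in mock. Over all genes the median SD was 0.08 in clone 7, 0.14 in clone 8, 0.07 in wild-type and 0.05 in mock. The level of EMC10 did not rise from wild-type to mock, being lowest in mock. Markers of other cells also differed between mock and wild-type, with 4 lower and 0 higher by limma. These were STMN2 (log2 -0.79 ± 0.07) and SYT1 (-0.53 ± 0.11) of the 4 neuronal, COL1A1 (-0.72 ± 0.10) of the 4 fibroblast and NES (-0.44 ± 0.07) of the 8 astroglial markers. The summed linear level of the fibroblast markers was 1924 to 2022 in wild-type and 1406 to 1455 in mock, and the part of these markers in the difference was not tested.

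The genes divided by where their step lay. In 11 of the 30 genes every mock array lay above every wild-type array and every clone array above every mock array, against 0.722% of all genes (12 and 0.809% without the 2 arrays). These were CDKN1A, MDM2, TP53INP1, FAS, PHLDA3, ZMAT3, RRM2B, SESN1, SESN2, DRAM1 and GDF15. With all 12 arrays, only GDF15 and PHLDA3 among them passed the limma test between mock and wild-type. PHLDA3 and RRM2B did not pass between the clones and mock. In that fit GDF15 alone thus passed at both steps, and in the others at least 1 step rests on the order of the arrays. Without the 2 arrays CDKN1A, MDM2, FAS, ZMAT3, RRM2B and DRAM1 also passed at both steps (adjusted P of at most 0.0474). PHLDA3 then still missed between the clones and mock, and TP53INP1, SESN1 and SESN2 between mock and wild-type. The share of all genes that passed at both steps is not given here. By group means alone, 24 of the 30 had this order, as did 27.1% of all genes. TP53I3, DDB2, GADD45A and PLK3 had their difference between mock and the clones, with mock minus wild-type at log2 -0.03 ± 0.08, 0.00 ± 0.06, 0.01 ± 0.09 and -0.05 ± 0.10. PPM1D had the reverse pattern, with log2 0.46 ± 0.08 between mock and wild-type and 0.05 ± 0.07 between the clones and mock. The 2 differences share the mock arrays, so a chance deviation of mock moves them in opposite directions.

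**Figure D4:**
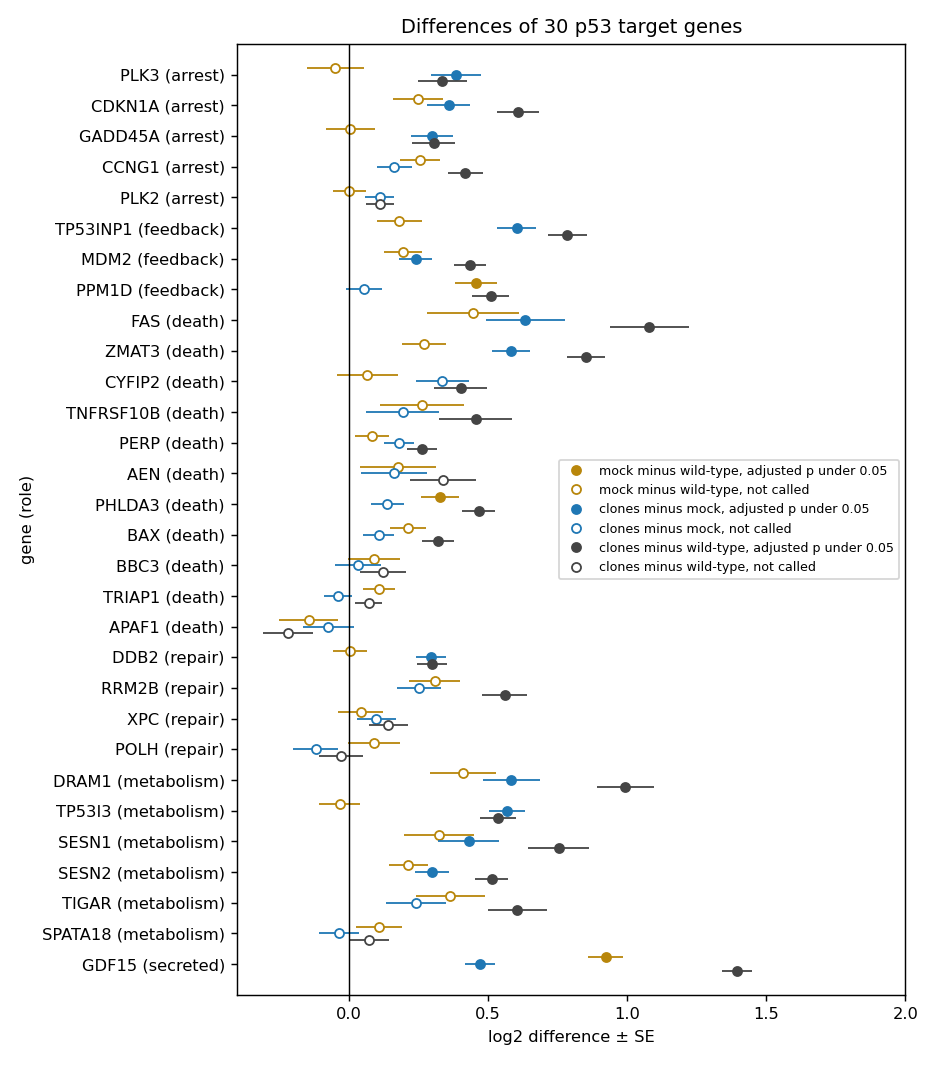
Log2 difference ± SE of each of the 30 p53 target genes, grouped by role, for mock minus wild-type (ochre), both clones minus mock (blue) and both clones minus wild-type (dark grey), with filled circles at an adjusted P under 0.05. GDF15 lies farthest right in ochre and dark grey, PPM1D is filled in ochre and open in blue, and TP53I3 is open in ochre and filled in blue.

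Against wild-type the clones were higher in 22 of the 30 genes and lower in 0 by limma (1 lower at an unadjusted P under 0.05), beside 4.63% and 5.32% of all genes, and in 23 without the 2 arrays (7.42% and 9.65%). Past 1.5-fold were 8 genes, beside 0.907% of all genes. These were GDF15 at 2.63-fold (log2 1.39 ± 0.05, adjusted P = 3.79e-08), FAS at 2.11-fold (1.08 ± 0.14, adjusted P = 0.000629), DRAM1 at 1.99-fold (0.99 ± 0.10, adjusted P = 9.37e-05), ZMAT3 at 1.81-fold, TP53INP1 at 1.72-fold, SESN1 at 1.69-fold, CDKN1A at 1.52-fold and TIGAR at 1.52-fold. In 22 of the 30 genes every clone array lay above every wild-type array, as in 6.88% of all genes (24 of the 30 and 8.18% without the 2 arrays). The 8 genes not called were PLK2, BBC3, APAF1, AEN, TRIAP1, XPC, POLH and SPATA18, with differences from log2 -0.22 to 0.34. APAF1, at log2 -0.22, was called lower without clone 8 replicate 2 (log2 -0.27, adjusted P = 0.04). This difference is the sum of the steps from wild-type to mock and from mock to the clones.

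Each clone was also compared with mock on its own, as labelled. In clone 7, 7 of the 30 genes were higher and 0 lower (1.82% and 1.32% of all genes), and in clone 8, 10 were higher and 0 lower (1.97% and 3.12%), with 0 lower in either at an unadjusted P under 0.05 in limma. TP53INP1 was at log2 0.60 ± 0.08 in clone 7 and 0.61 ± 0.08 in clone 8, GDF15 at 0.45 ± 0.06 and 0.50 ± 0.06, and ZMAT3 at 0.59 ± 0.08 and 0.58 ± 0.08. TP53I3 was at 0.63 ± 0.08 and 0.51 ± 0.08, DRAM1 at 0.69 ± 0.12 and 0.48 ± 0.12, DDB2 at 0.27 ± 0.06 and 0.32 ± 0.06, and SESN2 at 0.31 ± 0.07 and 0.29 ± 0.07. These 7 genes passed in each clone. Past 1.5-fold were 4 genes in clone 7 and 2 in clone 8, against 0.467% and 0.304% of all genes. FAS was at log2 0.56 ± 0.16 in clone 7 (adjusted P = 0.0976) and 0.71 ± 0.16 in clone 8 (adjusted P = 0.0315), and CDKN1A at 0.32 ± 0.09 (adjusted P = 0.0748) and 0.39 ± 0.09 (adjusted P = 0.0268). Both comparisons share the mock arrays. Without the 2 arrays, which leaves 2 per clone, 14 genes were higher in clone 7 and 17 in clone 8, and 0 lower in either, against 7.5% and 4.93% of all genes higher and 6.8% and 8.73% lower.

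The difference between the clones rested on the labels of the 2 arrays. As labelled, limma called 0 of the 30 genes between clone 8 and clone 7, and 0% of all genes. At an unadjusted P under 0.05 there was 1 of the 30, and 7.21% of all genes. The 95% interval of CDKN1A ran from log2 -0.12 to 0.26 and that of FAS from -0.21 to 0.50. Without the 2 arrays, 5 genes were higher in clone 8 and 2 lower, against 6.52% and 10.7% of all genes, so that 7 of the 30 were called beside 17.2% of all genes. Clone 8 was then higher in FAS (log2 0.50 ± 0.10, adjusted P = 0.00668), TNFRSF10B (0.46 ± 0.07, adjusted P = 0.000995), CYFIP2 (0.34 ± 0.07), AEN (0.32 ± 0.08) and CDKN1A (0.25 ± 0.06, adjusted P = 0.018). Clone 7 was higher in DRAM1 (log2 -0.43 ± 0.09 for clone 8 minus clone 7, adjusted P = 0.00825) and TP53I3 (-0.26 ± 0.07, adjusted P = 0.0216). GDF15 (0.01 ± 0.07), DDB2 (0.00 ± 0.07) and MDM2 (0.10 ± 0.06) did not pass.

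**Figure D5:**
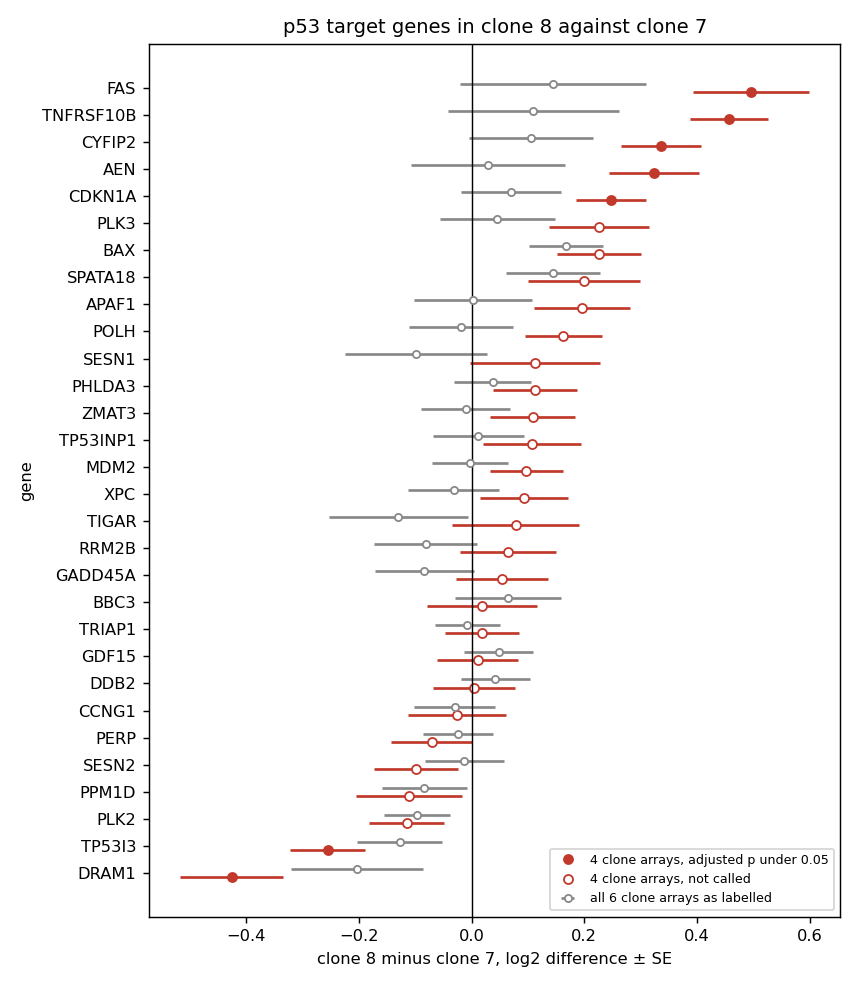
Log2 difference ± SE of clone 8 minus clone 7 for each of the 30 p53 target genes, with all 6 clone arrays as labelled (grey, 0 called) and with the arrays labelled clone 7 replicate 3 and clone 8 replicate 3 left out (red, filled where called). Without these arrays FAS, TNFRSF10B, CYFIP2, AEN and CDKN1A lie to the right and TP53I3 and DRAM1 to the left.

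Of the 6 measured genes with a response element match shown above, MDM2, FAS, DDB2, GDF15 and SESN1 were higher in clones than in the mock line. AEN was not. Called higher were 13 of all 30 genes and 2.87% of all genes tested. No window was given for 5 of the 32 genes, and whether matches and calls go together was not tested. Values of neighbouring genes on the chromosome are given for 6 of the genes called between the clones and mock. Over the 10 genes on each side of FAS on chromosome 10, the median difference between the clones and mock was log2 0.02, with 1 of the 20 higher and 0 lower. That gene was ACTA2, smooth muscle actin and the next gene to FAS, at log2 0.76 ± 0.14 (adjusted P = 0.00685), while CH25H on the other side was at 0.14 ± 0.09 (adjusted P = 0.465). RefSeq places both starts close together on opposite strands with overlapping gene bounds, and whether probes of one gene read transcripts of the other was not tested. Around GDF15, ZMAT3, TP53INP1, DRAM1 and TP53I3 the medians of the 20 neighbours were log2 0.05, -0.10, -0.06, 0.00 and 0.07. Of these neighbours 1 was higher around GDF15, 3 were lower around ZMAT3, 1 was higher and 3 lower around DRAM1, and none was called around TP53INP1 or TP53I3.

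The regulators of p53 gave few calls. Of 22 measured, 0 were higher and 3 lower in clones than in the mock line by limma, with a median of log2 -0.09, beside 2.87% and 3.51% of all genes. At an unadjusted P under 0.05 there were 0 and 7, against 8.68% and 11.3% of all genes, and 0 and 4 were called without the 2 arrays, against 5.47% and 7.65%. MDM4, the partner of MDM2 that also restrains p53, had log2 levels of 10.35, 10.36 and 10.32 in wild-type, 10.44, 10.55 and 10.39 in mock, and from 9.87 to 10.34 in the clones. MDM4 was lower than in mock by log2 -0.32 ± 0.08 (adjusted P = 0.0282), with clone arrays overlapping wild-type. TP53BP2, which steers p53 towards apoptotic genes, was at -0.32 ± 0.07 (adjusted P = 0.0161), and USP7, a deubiquitinase of MDM2 and p53, at -0.27 ± 0.06 (adjusted P = 0.0209). Against wild-type 1 of the 22 was higher, the ribosomal protein RPL11 (log2 0.33 ± 0.09, adjusted P = 0.0392), and 1 lower, TP53BP2 (-0.30 ± 0.07, adjusted P = 0.0156), beside 4.63% and 5.32% of all genes. MDM4 and USP7 did not pass (adjusted P = 0.123 and 0.0702). With the 2 arrays left out, 1 was higher and 5 were lower, against 7.42% and 9.65%. Between mock and wild-type limma called 0 of the 22, with 1 lower at an unadjusted P under 0.05.

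A further 39 measured targets of p53 gave 6 genes higher in the clones than mock and 0 lower by limma, with a median of log2 0.07, beside 2.87% and 3.51% of all genes. At an unadjusted P under 0.05 there were 13 and 4, against 8.68% and 11.3%. Among the 6 called, the largest were EDA2R, a receptor of the tumour necrosis factor family (log2 0.43 ± 0.09, adjusted P = 0.0108), and the ubiquitin ligase TRIM22 (0.37 ± 0.07, adjusted P = 0.00833). The ribosomal protein S27 relative RPS27L (0.34 ± 0.06, adjusted P = 0.00748) and the growth factor TGFA (0.31 ± 0.08, adjusted P = 0.0388) followed. The differences of the 39 genes ran from log2 -0.43, which was not called, to 0.43. Without the 2 arrays 10 were higher and 4 lower, against 5.47% and 7.65% of all genes. Against wild-type 9 were higher and 2 lower (4.63% and 5.32%), with differences from log2 -0.84 to 0.63. Past 1.5-fold were 2 in each direction (0.907% and 0.673%). Between mock and wild-type 0 were called (7 higher and 1 lower at an unadjusted P under 0.05), with differences from log2 -0.81 to 0.44. Without the 2 arrays 5 were higher and 2 lower in mock (3.41% and 3.66%).

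Genes that p21 represses through DREAM were mostly lower. Of 21 measured, 14 were lower in clones than in the mock line and 0 higher by limma, adjusted or not, with a median of log2 -0.34, beside 3.51% of all genes lower. There were 18 lower without the 2 arrays, against 7.65%. PCLAF, a PCNA clamp factor, was at log2 -0.48 ± 0.10 (adjusted P = 0.0153), cyclin A2 (CCNA2) at -0.45 ± 0.12 (adjusted P = 0.044), the spindle protein PRC1 at -0.44 ± 0.07 (adjusted P = 0.00347) and the mitotic transcription factor FOXM1 at -0.40 ± 0.07 (adjusted P = 0.00375). Against wild-type 7 were lower (5.32% of all genes), and 14 without the 2 arrays (9.65%). Between mock and wild-type limma called 0, with a median of log2 0.07 and 2 genes higher at an unadjusted P under 0.05.

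The integrated stress response, a programme of ATF4 that raises some of the same genes, gave 2 higher and 1 lower of 15 measured in the clones against mock, with a median of log2 -0.01, beside 2.87% and 3.51% of all genes. With the 2 arrays left out, 3 were higher and 2 lower, against 5.47% and 7.65%. ATF3, a transcription factor also induced by p53, was higher by log2 0.51 ± 0.11 (adjusted P = 0.0164) and CHAC1 by 0.24 ± 0.06 (adjusted P = 0.0292), and PHGDH of serine synthesis was lower (-0.34 ± 0.07, adjusted P = 0.012). DDIT3 (CHOP) was at 0.20 ± 0.15 (adjusted P = 0.516). Against wild-type, 3 of the 15 were higher in the clones and 2 lower (4.63% and 5.32% of all genes), with a median of log2 0.15. At an unadjusted P under 0.05 there were 9 and 3 (12.3% and 12.8%), and without the 2 arrays 7 and 2 (7.42% and 9.65%). Between mock and wild-type limma called 0, with 4 higher and 0 lower at an unadjusted P under 0.05 (6.2% and 5.86%). Without the 2 arrays 4 were called higher and 0 lower (3.41% and 3.66%).

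The calls between the clones and mock differed in how far they rested on single arrays. TP53INP1, ZMAT3, TP53I3, DRAM1 and GDF15 were called in each of the 21 alternatives that kept the threshold at an adjusted P under 0.05. Without mock replicate 1, 2 or 3 the 13 calls became 7, 5 and 5, and the share of all genes called in these fits is not given here. CDKN1A, FAS, PLK3, MDM2, GADD45A and SESN1 lost their call without any 1 of the mock arrays, and DDB2 and SESN2 without mock replicate 2 or 3. Over the 21 alternatives GADD45A and SESN1 were each called in 10, MDM2 in 12, and FAS and PLK3 in 16. For GADD45A, SESN1 and MDM2 the losses also came with array centring, with all probe sets tested, and without single wild-type or clone 7 arrays. The highest adjusted P when any 1 array was left out was 0.086 for CDKN1A, 0.102 for FAS and 0.14 for MDM2, while their differences stayed between log2 0.32 and 0.41, 0.54 and 0.72, and 0.21 and 0.27.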

How the data were processed

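RNA from 12 A172 cultures was hybridised to Affymetrix Human Gene 1.0 ST arrays. The deposited values were log2 expression levels that the authors had summarised and normalised. Partek is named in the submitters' processing notes without a version, and how it was set was not given in the sources used here. Of 33297 probe sets, 19460 had a single gene symbol. Per gene the probe set with the highest mean was kept, which left 18417 genes. Groups came from the sample labels.

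Group means were modelled per gene in limma 3.58.1 (lmFit, eBayes; R 4.3.3, with the data.table package, version 1.17.8), with 6 contrasts. Benjamini-Hochberg adjustment ran over all genes, and a gene was called at an adjusted P under 0.05. Errors are SE for differences. The code was tested on simulated data. Promoter windows were searched in Python 3.11.15, with tables and plots by pandas 2.3.3 and matplotlib 3.10.9.

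Values on each array are given for CDKN1A, MDM2, genes past both limits (adjusted P under 0.05 and 1.5-fold) in any contrast and the 8 genes with the lowest adjusted P between the clones and mock. The p53 target genes and the other lists (p53 regulators, further p53 targets, genes repressed through p21 and DREAM, integrated stress response and cell type markers) were chosen with earlier results of these data known. Alternatives were another normalisation, array centring, a filter on dim genes, a trended and robust prior, a fit of the compared groups alone, a replicate block, other handling of probe sets, other limits, and leaving out arrays. BTG2 and FDXR were not analysed here. Arrays have no read depth, so their number limits the precision.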

Additional observations from a re-analysis of the deposited data

Results flagged for a closer look

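The arrays labelled clone 7 replicate 3 and clone 8 replicate 3 each resembled the other clone, and 7 p53 target genes differed between the clones only once both were left out, which leaves 2 arrays against 2. In the same setting 17.2% of all genes were called, against 0% as labelled. The values of clone 8 minus clone 7 were then log2 0.50 for FAS, 0.46 for TNFRSF10B, 0.34 for CYFIP2, 0.32 for AEN, 0.25 for CDKN1A, -0.26 for TP53I3 and -0.43 for DRAM1. With all 6 clone arrays as labelled the same differences were 0.14, 0.11, 0.11, 0.03, 0.07, -0.13 and -0.20, and none passed the test. The cause of the mismatch between labels and profiles was not tested.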

How the results depend on the processing

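The number of p53 target genes called between both clones and mock (13) was 8 in a fit of the compared groups alone, 8 with a replicate block, 7 at an unadjusted P under 0.001 and 1.3-fold, 2 at 1.5-fold, and 5 to 15 when each array was left out in turn. For clone 8 against mock (10) the counts were 4, 5, 5 and 2 in the same order, 5 with all probe sets tested, 17 without both arrays that resemble the other clone, and 4 to 11 with single arrays left out, falling to 6 or fewer without any mock array, wild-type replicate 2 or clone 8 replicate 1. The fit of the compared groups alone called 1.74% of all genes higher and 1.93% lower between both clones and mock. For clone 8 against mock these shares were 0.391% and 0.418%. For the replicate block, the unadjusted limit, all probe sets tested and single arrays left out, no share of all genes is given. For clone 7 against mock (7) the counts were 4 at 1.5-fold, 14 without both arrays, and 5 to 13 with single arrays left out, the highest without clone 8 replicate 3. For mock against wild-type (3) they were 15 in the fit of both groups alone, 1 at 1.5-fold, 11 without both arrays, and 2 to 4. For the clones against wild-type (22) they were 8 at 1.5-fold and 17 to 23. For clone 8 against clone 7 (0) it was 7 without both arrays and 0 to 0 with single arrays left out. No gene of the 30 was called lower against mock in these alternatives, and against wild-type only APAF1 was, without clone 8 replicate 2 (log2 -0.27, adjusted P = 0.04). BBC3, not called, turned from log2 0.03 to -0.00875 without clone 8 replicate 3 (up to 0.0829 with other single arrays left out) and to -0.0273 without both arrays. SPATA18 has no value under the filter on dim genes. Fewer arrays, another spread or a stricter limit is part of each alternative, and the cause of each loss was not tested further. Same-numbered arrays had correlations of their deviations from -0.83 to 0.45 over 18 pairs, with 4 pairs over 0.1. The lowest was between the 2 arrays that resemble the other clone. That resemblance itself shapes the deviations within the clones, so these values cannot settle whether the replicate numbers pair the cultures. With 3 arrays a group and 1 line for each, small differences are not well resolved. Between the clones and mock, the 95% intervals of BAX (log2 -0.02 to 0.23) and XPC (-0.05 to 0.25) held both 0 and clear rises.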
